A study of Mus musculus with 2744 samples.

Results

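Microtubules are assembled from dimers of alpha- and beta-tubulin, and a mouse cell can draw each subunit from several genes, the tubulin isotypes. The 9 isotype genes described here were chosen by symbol: 3 alpha-tubulins (Tuba1a, Tuba1b and Tuba1c) and 6 beta-tubulins (Tubb2a, Tubb2b, Tubb3, Tubb4b, Tubb5 and Tubb6). All 9 were found among the 23968 gene rows of the deposited count tables. The study differentiated mouse embryonic stem cells into motor neurons as embryoid bodies and sequenced 2744 single cells by a modified CEL-seq protocol, which tags each messenger RNA at its 3′ end with the barcode of its cell. Some Day 6 cells are labelled eGFP++ (3 main plates and 1 pilot plate) or eGFP+ (a single main plate), and the remaining plates carry only a day of sampling, from Day 2 to Day 6. The 2 experiments, main and pilot, are the replicates (n = 2 per group, and 1 for eGFP+), and the design text describes them as biological. The labels name no cell line, genotype or added agent beyond a cited protocol for the differentiation, and they do not say which reporter gave eGFP. Embryoid bodies were dissociated with papain and single cells sorted into wells.

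The isotypes are close in sequence and differ mostly in their carboxy-terminal tails, where motor proteins and modifying enzymes act. Neurons are known for a distinct mix: Tuba1a is the main alpha-tubulin of young neurons, Tubb3 is the beta-tubulin commonly stained to mark them, and Tubb2a and Tubb2b are abundant in developing brain. Tuba1b, Tubb4b and Tubb5 are made in most dividing cells, and cells adjust the lifetime of tubulin messenger RNA to the amount of free dimer.

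Several isotypes lie side by side in the mouse genome (coordinates of GRCm38, GENCODE M21). On chromosome 15, Tuba1b (chr15:98931425-98934565, minus strand) was followed after 15272 bases by Tuba1a (chr15:98949837-98953703, minus strand) and after a further 76188 bases by Tuba1c (chr15:99029891-99038110, plus strand). On chromosome 13, Tubb2a (chr13:34074274-34078007) and Tubb2b (chr13:34126748-34130466), both on the minus strand, stood 48741 bases apart. The other beta genes were single: Tubb3 (chr8:123411424-123422015, plus strand), Tubb4b (chr2:25222160-25224702, minus strand) and Tubb5 (chr17:35833921-35838306, minus strand), with Tubb6 also alone. All 9 are annotated as protein-coding genes. Near-identical copies share reads: 25.4% of all reads did not align uniquely and were given to no gene, so the split between Tuba1a, Tuba1b and Tuba1c, and that between Tubb2a and Tubb2b, is uncertain by an amount not measured here. Tubb4b also overlaps Fam166a on the other strand, and the sources used here do not state whether the counting used strand.

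The sequences before 3 beta-tubulin genes show how different the upstream regions are for an isotype that was higher on Day 6 (Tubb2a), one that was fitted lower (Tubb4b) and the most abundant one (Tubb5). Each is the 250 bases before the gene's start in RefSeq, build GRCm38.p6, written 5′ to 3′ on the gene's strand, at chr13:34078009-34078258 (minus) for Tubb2a, chr2:25224703-25224952 (minus) for Tubb4b and chr17:35838302-35838551 (minus) for Tubb5. Capitals mark matches, on either strand, to 5 short motifs: the TATA box TATAAA, the CCAAT box CCAAT, the GC box GGGCGG, the E-box CANNTG and the homeobox core TAATTA.
Tubb2a: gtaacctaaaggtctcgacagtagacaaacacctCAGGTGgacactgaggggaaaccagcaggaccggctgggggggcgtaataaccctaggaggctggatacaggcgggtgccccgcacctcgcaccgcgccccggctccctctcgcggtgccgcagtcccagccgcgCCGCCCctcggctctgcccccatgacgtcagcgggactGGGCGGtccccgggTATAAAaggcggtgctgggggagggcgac
Tubb4b: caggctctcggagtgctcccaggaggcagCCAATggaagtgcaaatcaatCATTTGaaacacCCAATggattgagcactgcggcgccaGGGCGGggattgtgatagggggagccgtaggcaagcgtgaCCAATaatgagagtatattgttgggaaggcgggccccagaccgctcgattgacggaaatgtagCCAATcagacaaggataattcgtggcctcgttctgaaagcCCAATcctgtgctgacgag
Tubb5: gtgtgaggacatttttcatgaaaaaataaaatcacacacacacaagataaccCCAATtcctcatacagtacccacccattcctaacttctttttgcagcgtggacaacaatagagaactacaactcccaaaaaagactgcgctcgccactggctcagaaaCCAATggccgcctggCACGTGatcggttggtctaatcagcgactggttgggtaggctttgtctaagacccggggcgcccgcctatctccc
The Tubb2a window held 1 TATA box, 2 GC boxes and 1 E-box. In the Tubb4b window there were 5 CCAAT boxes, with 1 GC box and 1 E-box. Tubb5 had 2 CCAAT boxes and 1 E-box, and no GC box. Over the same window of all 32851 RefSeq entries, 12.4% held a TATA box, 33.8% a CCAAT box, 32.7% a GC box, 66.2% an E-box and 4.84% a homeobox core. A match is a run of letters and not a measured site. Of the 9 isotypes, 7 had an entry. The windows of Tuba1a, Tuba1b and Tubb3 lay in large part inside the gene as GENCODE draws it and are not printed. That of Tubb5 reaches 5 bases into the gene, and those of Tubb2a and Tubb4b none.

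The 2448 cells with at least 500 detected genes were summed by group and experiment into 13 libraries of 16370502 to 100972780 gene reads. Levels are given as CPM, read counts scaled so that each library's gene reads have the same total. The libraries carried the labelled course of differentiation. In the main experiment, 5 pluripotency markers summed to 11.9 CPM on Day 6 and 4325 CPM on Day 2, while 5 neuron markers summed to 6826 CPM in eGFP++ cells, 2421 CPM on Day 6 and 173.8 CPM on Day 2. The Egfp row itself read 9759 CPM in eGFP++ cells, 3804 CPM on Day 6 and 13.4 CPM on Day 2, and in pilot 4413, 2709 and 0 CPM. Endoderm markers summed to at most 22.8 CPM and mesoderm markers to at most 12.4 CPM. Glia markers were not at 0: 5 of them summed to 98.8 CPM in main and 301.6 CPM in pilot eGFP++ cells, 54.5 and 77.2 CPM on Day 6 and 12.3 and 23.4 CPM on Day 2, mostly from the myelin gene Mbp in the eGFP++ and Day 6 libraries, while the astrocyte genes Gfap and Aqp4 never passed 0.228 CPM. One main Day 3 plate stood apart, with a median of 1220 detected genes, and without it the main Day 3 library had 207.6 CPM of Tuba1a, 733.9 CPM of Tuba1b and 3078 CPM of Tubb5. In summed libraries fewer cells of a type and less RNA per cell cannot be told apart. Spike-in RNA moved with the day: it took 15.6% of gene and spike-in reads on Day 6 in main and 15.4% in pilot, against 2.98% and 4.75% on Day 2, so these levels describe the makeup of the RNA and not its amount per cell.

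Together the 9 isotypes took a larger part of the RNA on Day 6 than on earlier days. They held 0.548%, 0.534%, 0.426%, 0.781% and 1.01% of gene reads on Days 2 to 6 of the main experiment, 0.711% in its eGFP+ cells and 1.52% in its eGFP++ cells. Pilot libraries held 0.635%, 0.650%, 0.620%, 0.747% and 1.13% on Days 2 to 6 and 2.18% in eGFP++ cells. Day 6 and eGFP++ thus stood above every earlier day in both experiments. The 3 alpha isotypes gave 14.996% to 19.6% of the reads of the 9 in the 7 main libraries and 12.3% to 16.2% in 5 of the 6 pilot ones, with 8.59% in the pilot Day 4 library. These shares leave out 5 further alpha-tubulin genes, of which Tuba4a and Tuba3a were abundant early. With all 8 alpha genes and 8 beta genes counted, alpha-tubulin gave 19.9% of tubulin reads on Day 6 in main and 12.6% in pilot, against 29.7% and 24.6% on Day 2.

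The isotypes called higher on Day 6 than on Day 2 were 3, and each of them was also called higher against Day 4: Tuba1a, Tubb2a and Tubb2b. Tuba1a, the alpha-tubulin of young neurons, had 192.3, 199.9, 62.9, 358.5 and 1279 CPM on Days 2, 3, 4, 5 and 6 in main and 131.3, 220.8, 37.8, 302.98 and 748 CPM in pilot. In both experiments Day 4 was lowest, and each Day 6 value was above all earlier ones of its experiment. Day 6 plates ranged from 735 to 2044 CPM in main and from 118.3 to 1213 CPM in pilot, where the lower of the 2 plates lay within the 59.5 to 238.9 CPM of the pilot Day 2 plates. The fitted log2 change was 2.54 ± 0.40 (SE) for Day 6 against Day 2 (edgeR's quasi-likelihood test, Benjamini-Hochberg adjusted p = 0.0197) and 4.32 ± 0.44 against Day 4 (edgeR adjusted p = 0.00653). In the second of these, Tuba1a had the second smallest p of all genes tested.

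Tubb2b, a beta-tubulin of migrating and growing neurons, was, per kilobase of transcript, the most abundant of these 3 on Day 6. It had 183.2, 166.1, 185.4, 862 and 1954 CPM on Days 2 to 6 in main and 166.9, 210.4, 50.1, 693 and 2303 CPM in pilot. Days 2 to 4 were low, Day 5 stood between, and Day 6 was highest in both experiments, with no overlap between the Day 6 plates (872 to 3361 CPM over both) and the Day 2 plates (93.1 to 277.7 CPM). The change was 3.55 ± 0.55 for Day 6 against Day 2 (edgeR adjusted p = 0.0181) and 4.26 ± 0.57 against Day 4 (edgeR adjusted p = 0.0396).

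Its neighbour Tubb2a, whose protein is nearly the same, ran at a lower level, also per kilobase. Tubb2a had 28.5, 34.1, 17.2, 73.5 and 242.8 CPM on Days 2 to 6 in main and 18.3, 7.01, 6.27, 37.5 and 185.5 CPM in pilot. Every Day 6 plate, from 107.8 to 286.6 CPM, stood above every Day 2 plate, from 5.99 to 36.7 CPM. It changed by 3.17 ± 0.57 for Day 6 against Day 2 (edgeR adjusted p = 0.0328) and by 4.41 ± 0.60 against Day 4 (edgeR adjusted p = 0.0411).

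Tubb3, the class III beta-tubulin that marks neurons, had the largest fitted change of the 9 but did not pass the test. It read 13.4, 9.30, 20.5, 125.8 and 279.4 CPM on Days 2 to 6 in main and 3.60, 13.7, 0.0498, 52.95 and 317.1 CPM in pilot. The pilot Day 4 value rests on 3 reads, and the Day 6 values stood at least an order of magnitude above those of Days 2 to 4. The fitted change was 5.42 ± 1.62 for Day 6 against Day 2 (edgeR adjusted p = 0.176) and 5.44 ± 1.67 against Day 4 (edgeR adjusted p = 0.498). With DESeq2 in place of edgeR both changes passed, at adjusted p = 0.00277 against Day 2 and 0.0053 against Day 4. With cells thinned to equal depth they passed in edgeR too (adjusted p = 0.000306 and 0.00174), and with only the libraries of the 2 days fitted the change against Day 2 did (edgeR adjusted p = 0.00493). These settings called more genes in general. DESeq2 called 12.6% of all tested genes against Day 2 and 5.35% against Day 4. Thinning gave 6.01% and 1.55%, and the fit of the 2 days alone 3.62% against Day 2. In the main fit the shares were 0.833% and 0.0746%.

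**Figure D1:**
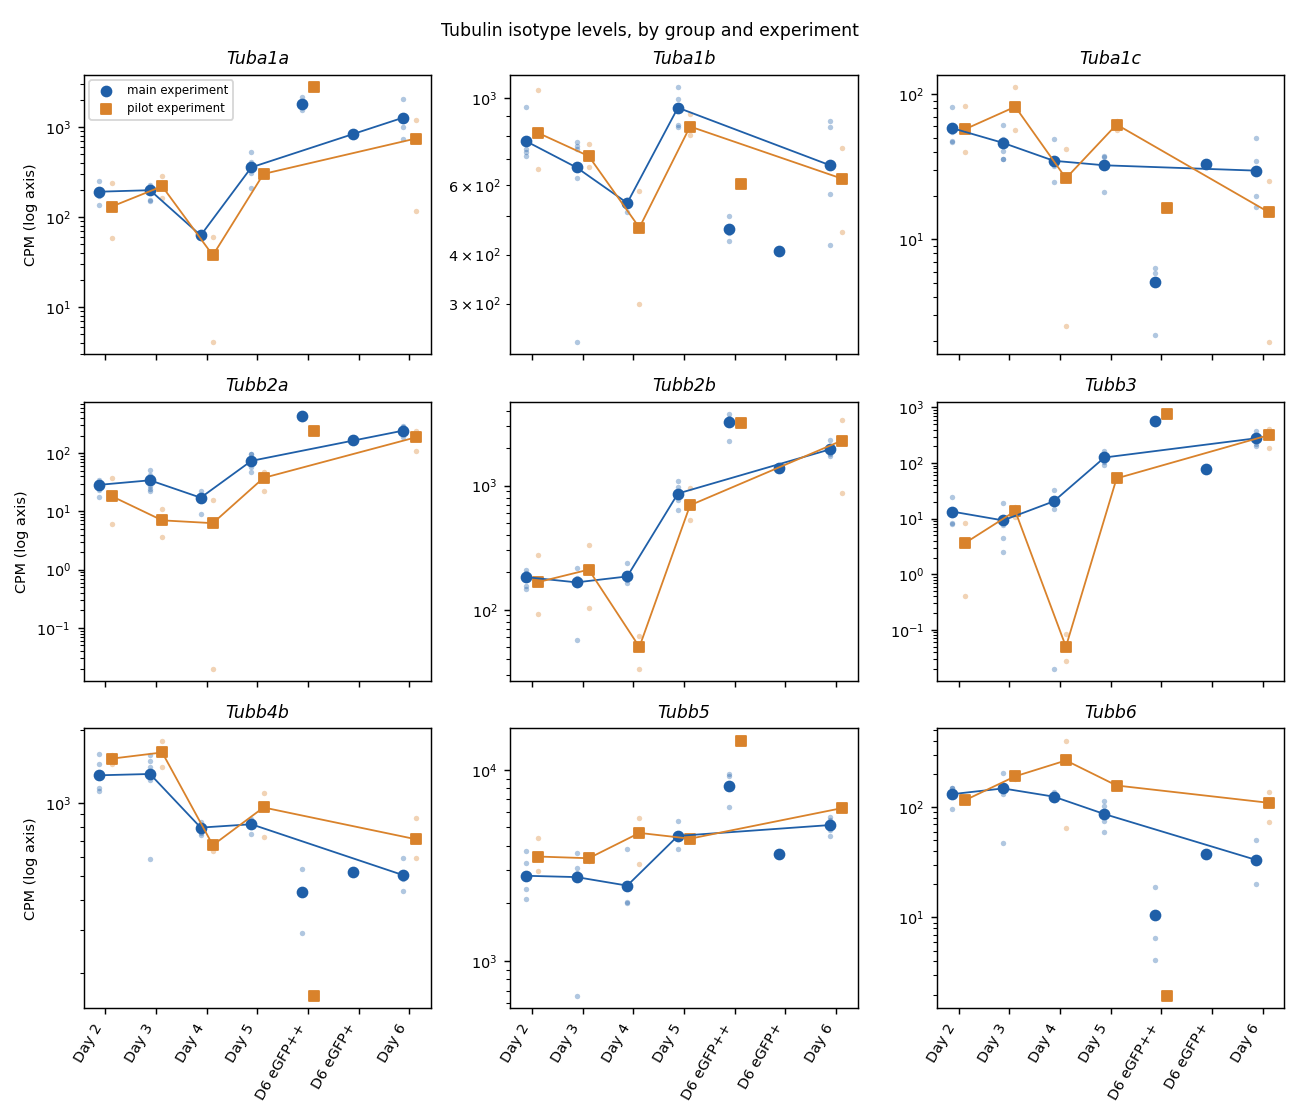
Level of each tubulin isotype in CPM (log axis) by group, with large symbols for the summed library of each experiment, small points for single plates (0 CPM drawn at the bottom, at 0.02) and lines joining Days 2 to 6. Tuba1a, Tubb2a, Tubb2b and Tubb3 are highest in Day 6 and eGFP++ libraries, Tubb4b is lower there, and the summed libraries of Tuba1b stay between 408.8 and 945 CPM, with single plates from 240.1 to 1066 CPM.

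Those 3 of 9 isotypes, all higher, compare with 0.585% of the 16080 tested genes called higher on Day 6 than on Day 2, 0.249% called lower and 0.833% in either direction. Against Day 4 the 3 compare with 0.0622% of genes called higher, 0.0124% lower and 0.0746% in either direction. The 2 comparisons share the Day 6 libraries, as does that of eGFP++ with Day 6 cells, and all 9 isotypes passed the filter on low counts. The median fitted change of the 9 was 0.77 for Day 6 against Day 2 and 0.75 for Day 6 against Day 4, beside 0.17 and 0.06 over all tested genes. With 2 libraries a group the calls are not robust to leaving out a library. For Day 6 against Day 2, none of the 9 passed without the main Day 2, the pilot Day 2 or the pilot Day 6 library, and only Tubb2b passed without the main Day 6 library (edgeR adjusted p = 0.0367). For Day 6 against Day 4, none passed without the pilot Day 4 or the main Day 6 library, Tuba1a alone passed without the pilot Day 6 library (edgeR adjusted p = 0.0136), and Tubb3 took the place of Tubb2a among the 3 calls without the main Day 4 library (edgeR adjusted p = 0.00752), a fit in which its Day 4 level rests on the 3 pilot reads. The changes of Tuba1a, Tubb2a and Tubb2b kept their direction in each of these fits.

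The remaining isotypes followed other courses. Tuba1b, the alpha-tubulin of most proliferating cells, had 777, 666, 540.97, 945 and 675 CPM on Days 2 to 6 in main and 816, 712, 468.3, 847 and 624 CPM in pilot. It was lowest on Day 4 and highest on Day 5 in both experiments, and the fitted change for Day 6 against Day 2 was -0.38 ± 0.31 (edgeR adjusted p = 0.575). Tubb5, the most abundant of the 9 in every library in reads and per kilobase, had 2789.6, 2746, 2478, 4509 and 5139 CPM in main and 3517, 3446, 4674, 4361 and 6304 CPM in pilot. Its Day 6 level stood above its Day 2 level in both, with a fitted change of 0.77 ± 0.28 that missed the threshold (edgeR adjusted p = 0.277).

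Tubb4b, a broadly made beta-tubulin also used in cilia, had 1304, 1319.9, 794, 819.8 and 505.9 CPM on Days 2 to 6 in main and 1526, 1618, 672, 961 and 712 CPM in pilot. Every Day 6 plate, at 436.5 to 867 CPM, was below every Day 2 plate, at 1125 to 1599 CPM, and the fitted change was -1.29 ± 0.45 (edgeR adjusted p = 0.259). Tubb6, a minor beta-tubulin outside the nervous system (chr18:67390717-67402749, plus strand), had 131.4, 147.9, 124.6, 86.6 and 33.2 CPM in main and 115.2, 190.6, 265.2, 157.2 and 109.6 CPM in pilot. Main values were lower on each day after Day 3, whereas the pilot values peaked on Day 4 and were near the Day 2 level on Day 6. The pilot peak comes from 1 of 2 Day 4 plates, which had 396.5 CPM of Tubb6 where the other had 64.8 CPM. Tuba1c, a minor alpha-tubulin, had 58.2, 46.1, 34.7, 32.3 and 29.7 CPM in main and 57.1, 81.7, 26.3, 61.6 and 15.4 CPM in pilot. Neither passed the test for Day 6 against Day 2, with fitted changes of -0.93 ± 0.78 for Tubb6 (edgeR adjusted p = 0.591) and -1.41 ± 0.74 for Tuba1c (edgeR adjusted p = 0.423).

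Between Day 2 and Day 4, none of the 9 isotypes was called by edgeR, where 0.0746% of all tested genes were, 12 in number (0.0684% higher and 0.00622% lower), and 1082 had an unadjusted p under 0.05. The fitted changes had a median of -0.75, beside 0.06 over all tested genes, and 7 of the 9 were below 0. Tuba1a had the smallest unadjusted edgeR p of the 9. In main it had 62.9 CPM on Day 4, against 192.3 CPM on Day 2, and in pilot 37.8 CPM, against 131.3 CPM. Its fitted change was -1.78 ± 0.39 (edgeR adjusted p = 0.24), and DESeq2 called it lower at an adjusted p of 0.0225. In this comparison DESeq2 called 3.79% of all tested genes. The pilot Day 4 library came from 57 cells with a median of 1404 detected genes, the fewest of any group, and 2 Day 4 plates, 1 in each experiment, lost at least 40% of their wells.

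**Figure D2:**
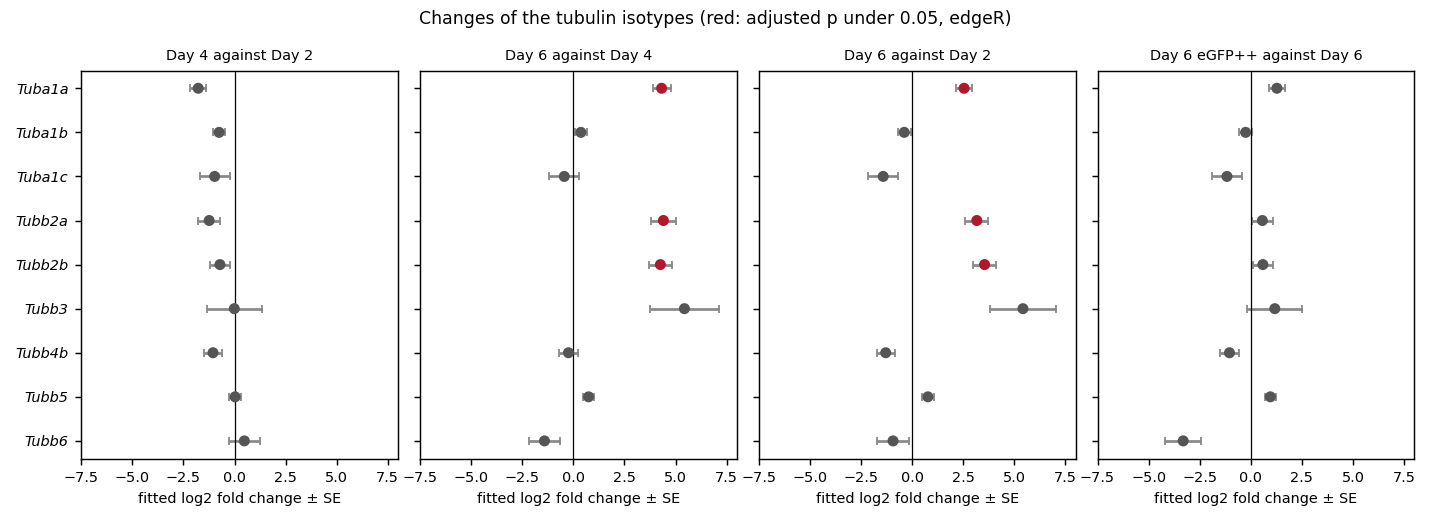
Fitted log2 fold changes of the 9 isotypes with their standard errors in 4 comparisons, red where the edgeR adjusted p was under 0.05. Red points are limited to Tuba1a, Tubb2a and Tubb2b in Day 6 against Day 4 and Day 6 against Day 2.

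The mix within each family differed between days. Alpha-tubulin reads are here those of Tuba1a, Tuba1b and Tuba1c alone. Tuba1a gave 18.7%, 21.9%, 9.85%, 26.8% and 64.5% of alpha-tubulin reads on Days 2 to 6 in main and 13.1%, 21.8%, 7.10%, 25.01% and 53.9% in pilot. Tuba1b gave most of the rest, with 75.6%, 73.03%, 84.7%, 70.7% and 34.02% in main and 81.2%, 70.2%, 87.95%, 69.9% and 44.98% in pilot. Tuba1b was thus the larger of the pair through Day 5 and Tuba1a the larger on Day 6 in both experiments, though on 1 of the 2 pilot Day 6 plates Tuba1a held only 20.5%. Per kilobase of the longest annotated transcript the Day 6 shares of Tuba1a were 63.8% in main and 53.1% in pilot, and those of Tuba1b 34.8% and 45.9%. The mean difference in the Tuba1a share, Day 6 minus Day 2, was 43.3 percentage points (SD 3.49 over the 2 experiments).

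Among the reads of all 8 alpha genes, a set taken after the data had been seen, Tuba4a held a large early part. It gave 38.9%, 18.03%, 14.2%, 1.92% and 2.07% on Days 2 to 6 in main and 38.9%, 27.2%, 47.9%, 3.78% and 2.69% in pilot. Tuba1b was then 41.3% and 46.8% on Day 2, and on pilot Day 4 it stood below Tuba4a, at 41.6%. Tuba1a was 63.03% and 52.3% on Day 6, against 10.2% and 7.53% on Day 2, so its mean difference was 48.8 percentage points (SD 5.66). In eGFP++ cells Tuba1a was 78.4% in main and 81.7% in pilot.

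Tubb5 remained the largest beta-tubulin, with 62.1% to 69.6% of beta-tubulin reads on Days 2 to 6 in main and 62.8% to 82.5% in pilot. The remainder was shared out differently. Tubb4b had 6.20% on Day 6 in main and 7.17% in pilot, against 29.3% and 28.5% on Day 2. Tubb2b had 23.96% and 23.2% on Day 6, against 4.12% and 3.12% on Day 2. Tubb2b held the second rank among beta-tubulins on Day 6 and Tubb4b on Day 2, also per kilobase, where Tubb2b held 25.8% and 24.97% on Day 6 and Tubb4b 9.12% and 10.53%. Tubb3 stayed a small part of the family: 3.43% of beta-tubulin reads on Day 6 in main and 3.19% in pilot, against 0.301% and 0.0673% on Day 2. Tubb6 held 0.407% on Day 6 in main and 1.10% in pilot, against 2.95% and 2.15% on Day 2.

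**Figure D3:**
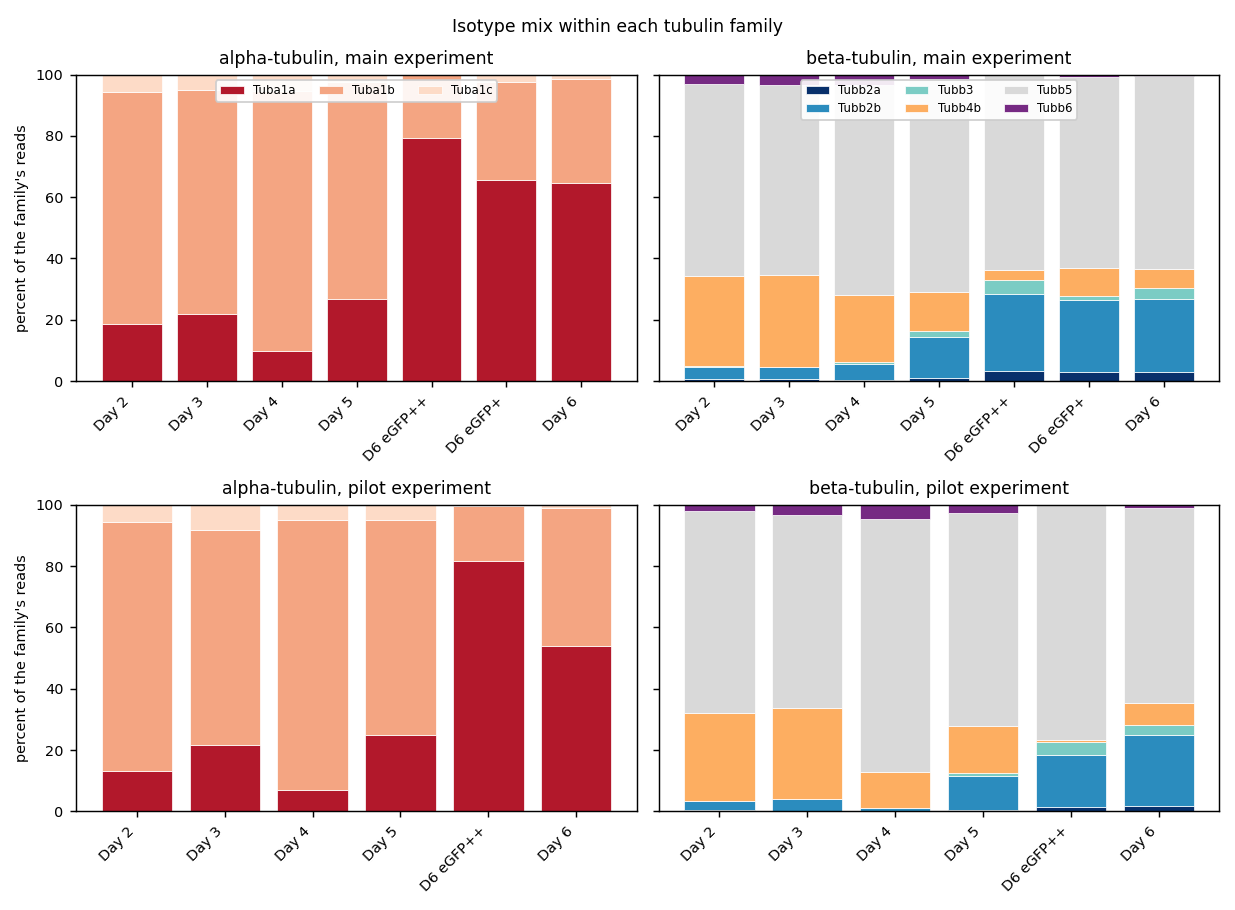
Share of each isotype in the reads of the 3 alpha isotypes (left) or the 6 beta isotypes (right), for the main experiment above and the pilot below. Tuba1a fills 53.9% to 65.5% of the alpha isotypes in Day 6 and eGFP+ libraries and 79.4% to 81.7% in eGFP++ cells, and Tubb2b is larger than Tubb4b there, beside a Tubb5 of at least 62.5%.

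The eGFP++ cells of Day 6 had more Tuba1a, Tubb2a, Tubb2b, Tubb3 and Tubb5 than Day 6 cells without the label in each experiment, but no isotype passed the edgeR test. Tuba1a had 1813 CPM in main eGFP++ cells and 2779 CPM in pilot ones, against 1279 and 748 CPM in Day 6 cells, and its fitted change was 1.27 ± 0.39 (edgeR adjusted p = 0.559). Tubb3 had 562 and 755 CPM in eGFP++ cells, against 279.4 and 317.1 CPM in Day 6 cells (1.17 ± 1.35, edgeR adjusted p = 0.815). Single main plates of Tuba1a overlapped between the groups, at 1566 to 2151 CPM in eGFP++ cells and 735 to 2044 CPM in Day 6 cells. Tubb5 had 8228 and 14116 CPM in eGFP++ cells, against 5139 and 6304 CPM in Day 6 cells, a fitted 0.95 ± 0.28 (edgeR adjusted p = 0.518). Tubb2b, with 3257 and 3165 CPM in eGFP++ cells against 1954 and 2303 CPM in Day 6 cells, and Tubb2a, with 425.97 and 241.8 CPM against 242.8 and 185.5 CPM, differed by 0.59 ± 0.50 and 0.56 ± 0.53. Of the 16080 tested genes, 0.0311% were called, 5 in number and all lower, 1011 had an unadjusted p under 0.05, and the median change was -0.52, beside 0.56 for the 9 isotypes.

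Tubb6, Tubb4b and Tuba1b were lower in eGFP++ libraries in each experiment, also without passing in edgeR. Tubb6 had 10.6 CPM in main eGFP++ cells and 1.95 CPM, 32 reads, in pilot ones, against 33.2 and 109.6 CPM in Day 6 cells. The fitted change was -3.31 ± 0.87, which edgeR did not call (adjusted p = 0.387) and DESeq2 did (adjusted p = 0.00903). In this comparison DESeq2 called 3.20% of all tested genes. Tubb4b had 432.2 and 161.6 CPM in eGFP++ cells, against 505.9 and 712 CPM in Day 6 cells (-1.05 ± 0.45, edgeR adjusted p = 0.743). Tuba1b had 465.4 and 606 CPM in eGFP++ cells, against 675 and 624 CPM in Day 6 cells (-0.25 ± 0.31, edgeR adjusted p = 0.824), and Tuba1c 5.07 and 16.4 CPM, against 29.7 and 15.4 CPM. With the main eGFP++ library left out of the edgeR fit, Tuba1a was again fitted higher and Tubb4b and Tubb6 lower. The remaining pilot eGFP++ library is 1 plate of 39 cells.

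In eGFP++ cells Tuba1a gave 79.4% of alpha-tubulin reads in main and 81.7% in pilot, against 64.5% and 53.9% in Day 6 cells. Their Tubb3 share of beta-tubulin was 4.35% and 4.09%, against 3.43% and 3.19%, and their Tubb4b share 3.35% and 0.876%, against 6.20% and 7.17%. The eGFP+ plate, without a replicate and so without a test, was close to Day 6 in mix and lower in Tubb3: Tuba1a took 65.5% of alpha-tubulin reads there, Tubb2b 23.7% of beta-tubulin reads, and Tubb3 79.6 CPM or 1.37%. Its 83 cells had a median of 1524 detected genes, against 2310.5 in the main Day 6 cells. The Egfp row of that plate read 1488 CPM, below the 3804 CPM of main Day 6 cells and close to the 1484 CPM of Day 5. Cell-cycle markers moved with these groups: the 5 of them summed to 230.03 and 91.8 CPM in eGFP++ cells, against 1011 and 1735 CPM in Day 6 cells, and to 1236 CPM in eGFP+ cells. None of the 5 was at 0 in any of these libraries, and their part in the isotype levels was not tested. Glia markers moved the other way: Mbp had 80.1 and 269.8 CPM in eGFP++ cells, against 38.5 and 67.7 CPM in Day 6 cells, and Sox10 15.2 and 31.8 CPM, against 1.24 and 0.0623 CPM. Gfap and Aqp4 were at 0 in both eGFP++ libraries, and the part of glia in the isotype levels was not tested.

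To count cells, each was thinned at random to 10000 gene reads. Reads had no molecular identifiers, so the 95% Wilson intervals given cover counting error only. Tubb3 was read in 7.61%, 4.98%, 3.10%, 32.2% and 49.2% of cells on Days 2 to 6 in main and in 2.70%, 5.80%, 0%, 14.7% and 46.5% in pilot. On pilot Day 4 the 0 of 57 cells allows up to 3 cells, a share of 5.26%, which limits cells with a read at this depth and not cells that express the gene. With all reads counted, 3 of the 57 had one. Among eGFP++ cells it was read in 84.8% in main (interval 80.1% to 88.5%) and 76.9% in pilot (61.7% to 87.4%), against 49.2% (43.98% to 54.3%) and 46.5% (35.4% to 57.96%) of Day 6 cells and 26.5% of eGFP+ cells. The eGFP++ share lay above the Day 6 interval in each experiment.

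Such shares depend on the depth at which cells are compared. With cells thinned to 1000 reads, Tubb3 was read in 36.4% of main and 48.7% of pilot eGFP++ cells, 18.1% and 12.7% of Day 6 cells and 1.39% and 1.33% of Day 2 cells. With all reads counted, which leaves depths unequal, the shares were 93.99% and 89.7% in eGFP++ cells, 62.99% and 78.9% on Day 6 and 35.2% and 9.33% on Day 2. The order of the 3 groups was the same at 1000, 5000 and 10000 reads and with all reads.

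Other isotypes were far more widely read. Tubb5 was found in 90.5% or more of cells in each of the 13 groups, and Tuba1b in 61.4% to 97.5%. Tuba1a was in 64.2% of main and 35.1% of pilot cells on Day 2, 35.8% and 12.3% on Day 4, and 88.4% and 74.6% on Day 6, with 99.3% and 94.9% of eGFP++ cells. Tubb2b reached 95.2% and 90.1% of Day 6 cells, against 62.5% and 27.03% of Day 2 cells. Tubb6 was read in fewer cells in main, at 10.45% of Day 6 cells against 53.5% of Day 2 cells, but in pilot its shares were 30.99% and 31.1%. In pilot eGFP++ cells Tubb6 was read in 0 of 39, which allows a share of up to 7.69% with a read at this depth. With all reads counted it was read in 10 of the 39, or 25.6%, on 32 reads.

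**Figure D4:**
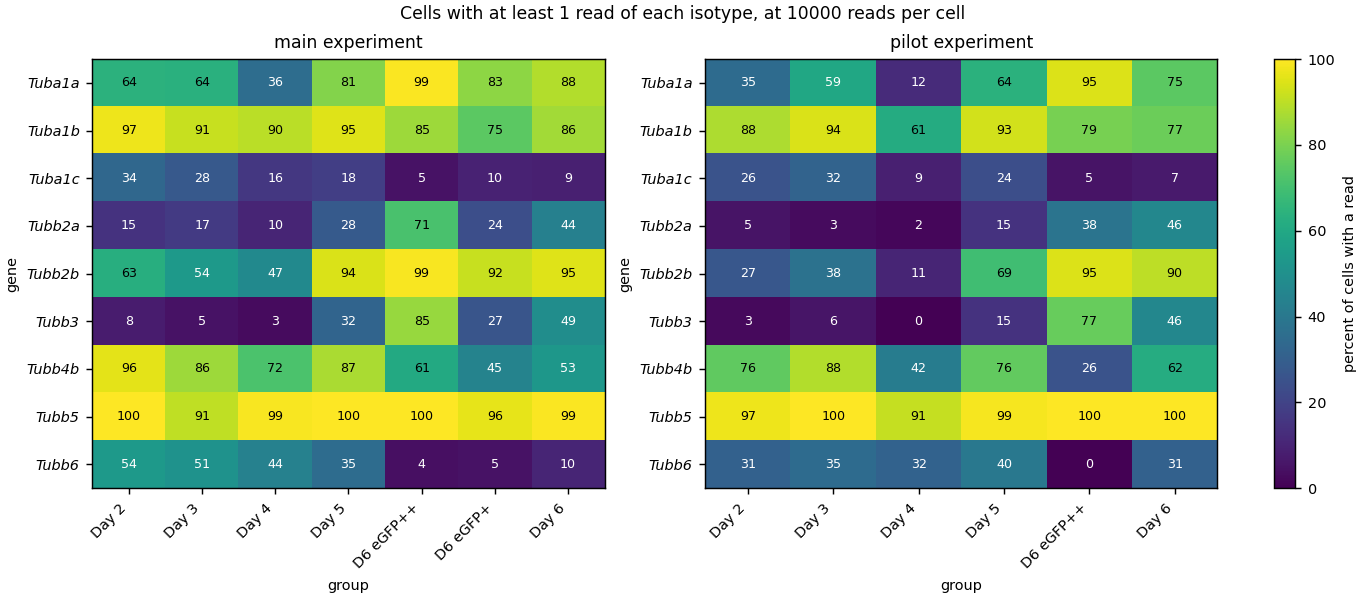
Percent of cells with at least 1 read of each isotype after thinning to 10000 reads a cell, by group, in the main and pilot experiments. Tubb3 is read in 84.8% and 76.9% of eGFP++ cells and in at most 7.61% of cells on Days 2 to 4, while Tubb5 is read in at least 90.5% of cells everywhere.

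The abundance order held cell by cell. Among cells with at least 20 beta-tubulin reads, Tubb5 was the leading beta isotype in 78.4% to 96.0%, or in 63.1% to 94.9% when reads were divided by transcript length. Tubb3 led in 0% of cells in all groups on both scales, eGFP++ included. Tubb2b led in 10.06% of main and 4.35% of pilot Day 6 cells by reads, and in 13.9% and 7.25% per kilobase. By reads, Tubb4b led in 0.888% and 0% of Day 6 cells, against 11.2% and 17.2% of Day 2 cells, and per kilobase in 2.07% and 1.45%, against 31.4% and 29.7%. Reads tagged at the 3′ end need not scale with transcript length, so both scales are given. A median cell showed 4 of the 6 beta isotypes on Day 6, against 3 in main and 2 in pilot on Day 2.

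Within Day 6, the mix differed between cells with neuron markers and cells with cell-cycle markers. Day 6 cells with reads of at least 2 of 5 neuron markers (Stmn2, Elavl3, Elavl4, Snap25, Nefm) were set beside Day 6 cells with at least 2 of 5 cell-cycle markers (Mki67, Top2a, Cdk1, Ccnb1, Ube2c) and under 2 neuron markers. Cells with both sets, 17 in main, count among the neuron-marker cells. As cells of the same cultures they are described and not tested. In main, Tuba1a gave 79.1% of alpha-tubulin reads in the neuron-marker cells, 50.6% of all, and 17.9% in 55 cycle-marker cells, and Tuba1b gave 19.98% and 77.7%. In pilot, Tuba1a gave 72.5% in 33 neuron-marker cells and 23.1% in 22 cycle-marker cells. In the Day 2 libraries Tuba1a had 18.7% in main and 13.1% in pilot.

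Beta-tubulin divided in the same manner. In main Day 6, Tubb3 took 4.55% of beta-tubulin reads in neuron-marker cells and 0.246% in cycle-marker cells, and it was read in 77.7% of neuron-marker and 7.27% of cycle-marker cells. It was also read in 25.8% of the main Day 6 cells with neither set, which were 33.9% of all, and in 31.2% of such pilot cells. Tubb4b took 3.53% in neuron-marker cells and 12.4% in cycle-marker cells. Tubb2b was less exclusive, at 26.6% in neuron-marker cells and 15.1% in cycle-marker cells, with a read in 92.7% of the cycle-marker cells. Pilot shares were 4.94% and 0.260% for Tubb3, 3.07% and 11.8% for Tubb4b, and 29.6% and 13.8% for Tubb2b, in each pair for neuron-marker cells and then for cycle-marker cells. Tubb5 was higher in the neuron-marker cells, at 6290 CPM against 4684 CPM in main and 6945 CPM against 4995 CPM in pilot. Before thinning, the median number of detected genes hardly differed in main, at 2554 in neuron-marker cells and 2725 in cycle-marker cells. In pilot it was lower for the neuron-marker cells, 3361 against 3994.

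The same division was present on Day 5, with less Tuba1a in the neuron-marker cells. On main Day 5, Tuba1a took 56.8% of alpha-tubulin reads in 86 neuron-marker cells and 18.6% in the cycle-marker cells, 56.1% of all, and Tubb3 6.14% and 0.500% of beta-tubulin reads. The 38 Day 5 cells with both marker sets, all among those 86, had 3.12% for Tubb3. The total of the 9 isotypes in main Day 6 was 12801 CPM in neuron-marker cells and 8065 CPM in cycle-marker cells. Among eGFP++ cells, 93.6% in main and 84.6% in pilot carried the neuron markers, against 50.6% and 46.5% of Day 6 cells. Within neuron-marker cells alone, Tuba1a had 79.99% of alpha-tubulin in main eGFP++ cells and 80.2% in pilot ones, against 79.1% and 72.5% in Day 6 cells.

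**Figure D5:**
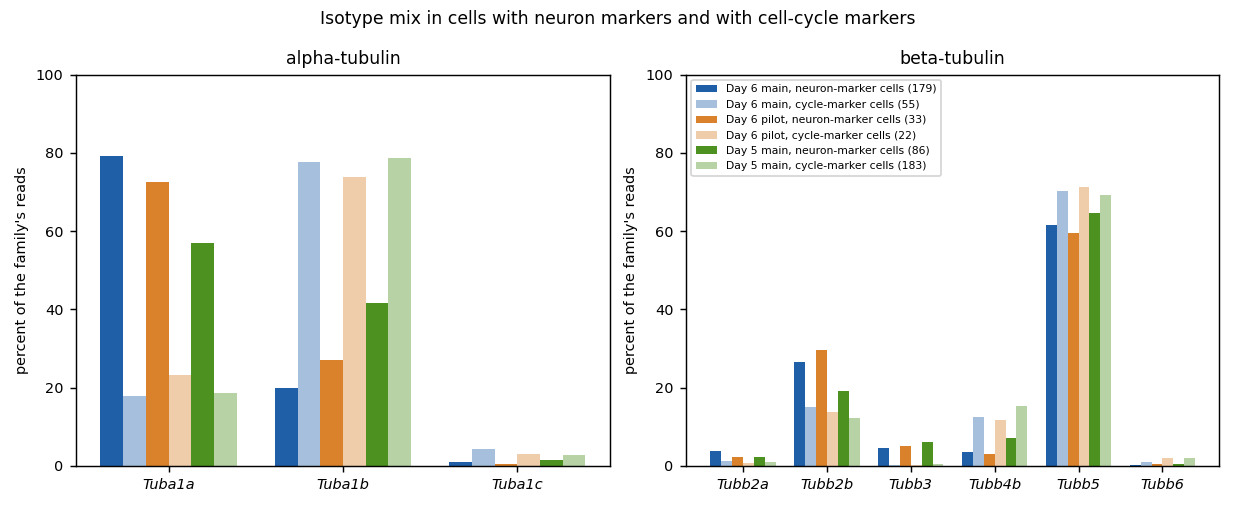
Share of each isotype in the reads of the 3 alpha or 6 beta isotypes, in cells with neuron markers (full colour) and in cells with cell-cycle markers (pale), with the number of cells in brackets. Tuba1a and Tuba1b change places between the 2 kinds of cell (79.1% and 17.9% for Tuba1a on main Day 6), Tubb3 has a larger share in neuron-marker cells, and Tubb5 is 59.6% to 71.4% in both.

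Across single Day 6 cells, thinned reads of Tuba1a and Tubb3 had a Spearman rho of 0.66 over the main cells and 0.45 over 71 pilot cells, and those of Tuba1a and Tubb2b 0.58 and 0.64. Tubb3 and the neuron gene Stmn2 stood at 0.65 and 0.74. Tuba1a and Tuba1b, 15272 bases apart, stood in this measure at -0.06 and 0.03, and Tuba1b went with the cell-cycle gene Top2a at 0.33 and 0.31. Cells of a day share their libraries and differ in genes detected, so these are descriptions. Over the 12 libraries of the fit, Pearson's r of log2(CPM + 1) was 0.984 between Tubb2b and Tubb3 and 0.943 between Tubb2a and Tubb2b, and -0.0027 between Tuba1a and Tuba1b. Libraries of a group share their day, so these values carry no test.

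Among 5807 other genes with a mean of at least 20 CPM, those most like Tubb3 over the 12 libraries were Syt11, a synaptotagmin (r = 0.977), Nefl, a neurofilament subunit (0.973), Tppp3, a tubulin-binding protein (0.971), Rhbdl3 (0.968) and Stmn3, a tubulin-binding stathmin (0.966). Tuba1b was less closely matched, by Snrpb, a spliceosome protein (0.870), Lsm5 (0.860), Sms (0.859), Erh (0.858) and U2af2, a splicing factor (0.849). Nearest to Tubb5 were Smug1, a DNA glycosylase (0.955), Zfyve20 (0.953), Cyfip2 (0.9496), Snx18 (0.949) and Metap1 (0.947).

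Other genes that make, fold, modify or nucleate tubulin were examined from lists drawn up with earlier results of these data known. None was called in any of the 4 comparisons by edgeR, over 10 tested further tubulin genes, 19 folding factors, 18 modifying enzymes, 14 nucleation factors and Ttc5, which mediates tubulin autoregulation. For Day 6 against Day 2 the list medians of log2 change were -1.23 for the further tubulins, -0.49 for folding, 1.72 for modification and 0.00 for nucleation, beside 0.17 over all tested genes. The genes named below had the smallest p of their list in Day 6 against Day 2 or in eGFP++ against Day 6. They are therefore not typical of their lists.

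Tuba4a, an alpha-tubulin encoded without the final tyrosine, was abundant early: it had 41.96 CPM on Day 6 in main and 38.4 in pilot, against 733 and 677 CPM on Day 2 (-4.22 ± 1.26, edgeR adjusted p = 0.176). Tuba3a, which is best known from testis, had 3.48 and 2.96 CPM on Day 6, against 116.5 and 50.9 CPM on Day 2 (-4.81 ± 1.02, edgeR adjusted p = 0.0612). In eGFP++ cells it had 0 and 0.0611 CPM. The Day 6 values of both genes lay below their Day 2 values in each experiment. Tubal3 was under 2 CPM in all libraries.

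Of the folding factors, the prefoldin subunit Pfdn5 had 409.5 and 602 CPM on Day 6, against 134.5 and 173.2 CPM on Day 2 (1.63 ± 0.39, edgeR adjusted p = 0.101), and the chaperonin subunit Cct6a 248.5 and 331.6 CPM, against 569.98 and 726 CPM (-1.25 ± 0.32, edgeR adjusted p = 0.116). Vbp1, another prefoldin subunit, and Tbca, which holds beta-tubulin during folding, had fitted changes of 0.69 ± 0.43 and -0.53 ± 0.40 for eGFP++ against Day 6. Among the enzymes, Atat1, which acetylates alpha-tubulin, had 56.04 and 37.3 CPM on Day 6, against 7.56 and 3.96 CPM on Day 2 (2.98 ± 0.70, edgeR adjusted p = 0.092). Vash1, which removes the final tyrosine, had 52.04 and 81.7 CPM, against 1.64 and 3.901 CPM (4.51 ± 1.11, edgeR adjusted p = 0.108). Ttll1, a polyglutamylase subunit, and Agtpbp1, which trims glutamate chains, had fitted changes of 2.54 ± 1.22 and 2.18 ± 1.17 for eGFP++ against Day 6, both at an edgeR adjusted p of 0.743. Ttll1 had 38.1 CPM in main and 128.95 CPM in pilot eGFP++ cells, against 23.02 and 7.23 CPM in Day 6 cells, and Agtpbp1 34.8 and 126.02 CPM, against 33.7 and 16.9 CPM, so both fitted changes rest largely on the pilot.

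Of the nucleation factors, Tpx2, which acts at the mitotic spindle, had 25.2 and 39.2 CPM in eGFP++ cells, against 79.2 and 98.9 CPM in Day 6 cells (-1.47 ± 0.43, edgeR adjusted p = 0.488). For Day 6 against Day 2 its change was -1.35 ± 0.43 and that of Mzt2, a part of the gamma-tubulin ring complex, 1.47 ± 0.69. Cdk5rap2, a centrosome protein, had 0.447 and 0 CPM in eGFP++ cells, against 6.88 and 16.9 CPM in Day 6 cells (edgeR adjusted p = 0.712). Ttc5 lay over Days 2 to 6 between 6.46 and 21.7 CPM, and read 13.6 CPM in main and 139.8 CPM in pilot eGFP++ cells, so that its fitted change of 2.39 ± 1.13 against Day 6 cells rests on the pilot.

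Set against the spike-in RNA in place of all gene reads, the isotypes kept their order of change at a lower level. Gene reads per spike-in read were 5.41 on Day 6 in main and 5.48 in pilot, against 32.6 and 20.05 on Day 2. With spike-in reads as the scale, chosen after the data had been seen, the median change of all tested genes was -2.02 for Day 6 against Day 2. On that scale Tuba1b, Tuba1c, Tubb4b and Tubb6 were called lower (-2.58, -3.62, -3.49 and -3.31; edgeR adjusted p = 0.0144, 0.0251, 0.00891 and 0.0351), where 13.3% of all tested genes were called. The 3 isotypes called on the CPM scale were not called, with fitted changes of 0.31 ± 0.62 for Tuba1a, 0.99 ± 0.71 for Tubb2a and 1.33 ± 0.60 for Tubb2b. Relative to the median these are 2.33, 3.01 and 3.35, and Tubb5, at -1.45 ± 0.57, is 0.57. Per 1000 spike-in reads, Tuba1a had 13.4 and 23.01 reads in eGFP++ cells, 6.92 and 4.09 on Day 6 and 6.27 and 2.63 on Day 2. How much spike-in RNA each well received is not stated in the labels.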

How the data were processed

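The deposited tables hold whole-number read counts per gene and single cell. TopHat2 2.1.1, HTSeq 0.6.1 and mm10 are named, without roles, in the submitters' processing notes. The authors' tables carry no molecular identifiers, so amplified copies count as reads. Of the tables, 35 matched a sample label, and the 40 columns of another were not used. Summary rows, 34.9% of reads, and 27 rows whose names differ between tables were left out. Cells with at least 500 detected genes were summed by group and experiment. The eGFP+ library entered no fit. The 12 others were fitted together with edgeR 4.0.16 (quasi-likelihood, TMM, group plus experiment; 16080 genes after filterByExpr; common dispersion 1.12; 5 residual degrees of freedom; Benjamini-Hochberg adjusted p under 0.05). The fit was tested on simulated data, with genes of at least 20 CPM raised on Day 6. Against Day 2 it called 1 of 50 genes raised 2-fold and 4 of 50 raised 4-fold. At 16-fold it called 43 of 50, and at 64-fold 49 of 50. Between 0.0746% (Tubb5) and 41.0% (Tubb3) of genes had a lower dispersion than an isotype, so these rates need not hold for the isotypes. Same-experiment libraries deviated together in all 15 pairs of groups, at r of 0.0578 to 0.282. The 2448 kept cells had 2448 distinct count vectors, so none of these cells was deposited more than once. Thinning used 10000 reads a cell and left out cells with fewer; 1000, 5000 and all reads were alternatives. Other alternatives were DESeq2 1.42.0, further tubulin genes in the family totals, other scalings, filters and left-out libraries. The genes whose pattern is most like a member's were ranked by Pearson's r. The isotypes and gene lists were chosen with earlier results of these data known.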

Additional observations from a re-analysis of the deposited data

Results flagged for a closer look

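Each of 36 sets examined held the shares of 1 isotype over the plates of 1 group. In 2 of them a plate lay far from the others, and both concern the same Day 3 plate of the main experiment. Chance flags about 1 in 20 such sets, and shares within 1 family are not independent of each other. Tuba1a gave 35.5% of alpha-tubulin reads there, with 22.5% on the nearest of the other Day 3 plates, and Tuba1b gave 56.2%, with 73.7% on the nearest. The plate's cells had a median of 1220 detected genes and 11.5% spike-in reads, and its Tubb5 level was 658 CPM. The part of low RNA content in these shares was not tested. Without the plate, the main Day 3 library had 207.6 CPM of Tuba1a, or 20.98% of alpha-tubulin, and 734 CPM of Tuba1b, or 74.2%.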

How the results depend on the processing

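Of the changes of single isotypes under the alternatives, 34 lost the call, 15 gained one, 21 turned sign and the others kept both direction and side of the threshold; the cause was not tested. The number of the 9 called for Day 6 against Day 2, 3 as reported, ranged from 0 to 1 with a library left out and was 4 with spike-in scaling, all lower, and 4 with DESeq2, with thinned cells and with only the 2 groups fitted, all higher and Tubb3 among them. For Day 6 against Day 4, also 3, it ranged from 0 to 3, was 0 with spike-in scaling, 1 with at least 1000 detected genes, and 4, Tubb3 among them, with DESeq2 and with thinned cells. For eGFP++ against Day 6 and for Day 4 against Day 2, edgeR called 0 as reported and DESeq2 1 each. The settings also differ in the share of all tested genes called. For Day 6 against Day 2 it was 13.3% with spike-in scaling and 12.6% with DESeq2. Thinned cells gave 6.01% there and the 2 groups alone 3.62%. Against Day 4 it was 5.35% with DESeq2 and 1.55% with thinned cells. DESeq2 called 3.20% for eGFP++ against Day 6 and 3.79% for Day 4 against Day 2. Leaving out the replicate block gave 2 calls for Day 6 against Day 2 and 2 against Day 4, both losing Tubb2a, and a Tubb3 change of 0.28 for Day 4 against Day 2, in place of -0.01. That Tubb3 change was 0.27 with thinned cells, 0.40 without the plates that lost many wells, and -7.24 to 1.11 with a library left out. Tubb5 for Day 4 against Day 2 was -0.0025 with DESeq2 size factors and with DESeq2, -0.054 with thinned cells, -0.81 with spike-in scaling, and -0.22 to 0.22 with a library left out; Tubb2b was -2.0004 to 0.035. Spike-in scaling turned Tubb6 for Day 4 against Day 2 (-0.40), Tuba1b (-0.91) and Tubb5 (-0.63) for Day 6 against Day 4, Tubb5 for Day 6 against Day 2 (-1.45) and Tuba1b for eGFP++ against Day 6 (0.24). For Day 6 against Day 4, Tuba1c was 0.067 with thinned cells and -1.28 to 0.20 with a library left out, and Tubb4b -0.70 to 0.15. Tubb3 for eGFP++ against Day 6 was -0.027 to 2.25 with a library left out. Its share of beta-tubulin, Day 6 minus Day 2, was 3.13 percentage points, and 3.12 in all wells, 3.13 with at least 1000 genes, 3.04 thinned, 3.95 per kilobase and 3.12 with further tubulin genes counted; for eGFP++ minus Day 6 these were 0.767 with at least 1000 genes, 1.07 thinned and 1.32 per kilobase. With the further alpha genes, the Tuba1a share of alpha-tubulin, Day 6 minus Day 2, was 48.8 points in place of 43.3. Of 81 shares of cells with a read, 56 moved by more than the spread between experiments at another depth. Fits rest on 2 libraries a group, which limits what can be called.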
